A study of Mus musculus with 15 samples.

Results

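The 10 genes described here, Apoe, Trem2, Gpnmb, Spp1, Lgals3, Fabp5, Abca1, Abcg1, Plin2 and Npc2, were grouped as genes of lipid-handling repair macrophages. The name of the group does not make macrophages their only source. Plin2, Npc2 and Fabp5 held 5.62, 5.45 and 2.76 mean FPKM in Uninjected fibers. The 10 genes were taken by name, and each name belonged to 1 of the 56748 gene identifiers of the tables, so no choice between identifiers was needed. All 10 are protein-coding in GENCODE release M21 (GRCm38). The samples were single muscle fibers with the cells attached to them, from the tibialis anterior (TA) of male C57BL/6 mice. The study's abstract names the substrain J, and the mice entered the protocol at 8 weeks of age. Cardiotoxin (CTX), a venom toxin that kills muscle fibers and leaves their stem cells, was injected as 50 µL of 0.1 mg/mL. It was given in sterile PBS with the drug meloxicam. The study's methods describe no such injection for its uninjected control mice. The Proliferation Stage was taken 4 days after CTX, the Differentiation Stage 7 days after and the Maturation Stage 14 days after, with 4 RNA libraries each, and 3 libraries were Uninjected. All mice also drank heavy water, over a window that differed between groups. The Uninjected group of the study was of mice that received no CTX. The injected mice also kept 1 TA without injection, and the labels of the Uninjected libraries say only that the TA was not injected. GEO's labels call the material bulk tissue in 1 field and purified fibers in another. Depletion of CD45+ leukocytes is described for other aliquots of these fibers and is not stated for the RNA.

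Macrophages that clear dead fibers take in membrane lipid and cholesterol with the debris. TREM2 is a surface receptor that binds lipids and lipoproteins. Engulfed cholesterol is moved out of the lysosome by NPC2, which hands it to the membrane protein NPC1, and leaves the cell through the transporters ABCA1 and ABCG1 onto particles that carry APOE, while lipid that stays is stored in droplets coated by PLIN2. GPNMB, SPP1, LGALS3 and FABP5 are known as products of lipid-laden macrophages in atherosclerotic plaque, adipose tissue and healing wounds.

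Values are FPKM as deposited, the number of fragments per kilobase of a gene's exons with a scaling for each library. The fragments behind them were recovered from the steps in which the values rise, and 148 of the 150 values of the 10 genes came out within 0.02 of a whole fragment. The libraries held 1471357 to 7209362 fragments in genes, a 4.90-fold range, and the shallowest was Differentiation Stage replicate 1. The library scaling was not the total alone: the divisor in FPKM was 1.09 to 1.91 times the fragments in genes in the Proliferation Stage and 0.859 to 0.913 times in the Uninjected group. Of all FPKM, transcripts of the mitochondrial genome took 5.09% to 19.98% at 4 days and 24.6% to 38.0% without injury. The material was checked against 16 macrophage genes, whose summed FPKM was 1323 to 3224 at 4 days, 85.7 to 1183 at 7 days, 23.7 to 65.3 at 14 days and 7.05 to 19.7 in Uninjected fibers. At 7 days this sum was 85.7 in replicate 1 and 336 in replicate 3 against 832 in replicate 2 and 1183 in replicate 4, and in the Proliferation Stage it was highest in replicate 1. In bulk samples, fewer cells of a type and less RNA per cell cannot be told apart. Summed neutrophil markers were 1.84 to 10.7 FPKM in the Proliferation Stage, with Ly6g and Ngp at 0, summed T, NK and B cell markers 1.63 to 4.86, and summed dendritic cell markers 8.93 to 16.3. Summed adipocyte markers ran from 0.164 to 15.3 FPKM in the Proliferation Stage and from 7.38 to 18.4 in the Uninjected group. Markers of myoblasts and new fibers were also higher, 8 of 8 at 4 and at 7 days, beside 20.1% and 17.0% of all genes. Their summed FPKM was 841 to 1354 at 4 days, 114 to 758 at 7 days, 25.2 to 42.4 at 14 days and 15.5 to 28.6 in the Uninjected group. The median log2 fold change of these markers at 4 days was 6.16, against 5.10 for the macrophage genes. Summed markers of fibro-adipogenic progenitors, connective tissue cells of muscle, were 116 to 211 FPKM in the Proliferation Stage and 63.2 to 99.3 in the Uninjected group. Of these progenitor markers 4 of 7 were called higher at 4 days and 2 at 7 days, beside 20.1% and 17.0% of all genes. The part of these other cell types in the values of the 10 genes was not tested.

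For 8 of the 10 genes RefSeq (GRCm38.p6) gives the bases before a start site, in 11 windows. They were searched on both strands, over 250 bases, for 7 short motifs known from macrophage and lysosomal gene control. These were the E-boxes TCACGTG and TCATGTG and the core CACGTG, which the first of them contains and the second does not. The others were the AP-1 motif TGAGTCA, the PU.1 motif GAGGAAGT, the RUNX motif TGTGGTT and the LXR repeat of AGGTCA, 4 free bases and AGGTCA. The 4 windows printed here were chosen because 3 of them hold every match found, beside that of Trem2, whose level ran closest to that of Gpnmb, and the capitals mark the matches. They are chr5:104434861-104435110 on the plus strand for Spp1, chr6:49036268-49036517 on the plus strand for Gpnmb, chr17:48346151-48346400 on the plus strand for Trem2 and chr4:53159896-53160145 on the minus strand for Abca1, each written 5′ to 3′ on the gene's strand.
Spp1: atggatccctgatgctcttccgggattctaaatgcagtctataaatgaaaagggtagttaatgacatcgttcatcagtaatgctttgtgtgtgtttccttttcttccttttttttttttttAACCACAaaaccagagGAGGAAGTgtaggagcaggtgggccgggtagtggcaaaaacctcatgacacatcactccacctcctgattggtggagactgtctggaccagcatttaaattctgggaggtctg
Gpnmb: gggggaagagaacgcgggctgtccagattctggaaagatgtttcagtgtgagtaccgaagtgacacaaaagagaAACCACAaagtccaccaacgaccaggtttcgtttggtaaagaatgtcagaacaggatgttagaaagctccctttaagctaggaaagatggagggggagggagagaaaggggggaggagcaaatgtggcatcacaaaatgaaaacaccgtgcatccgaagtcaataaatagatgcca
Trem2: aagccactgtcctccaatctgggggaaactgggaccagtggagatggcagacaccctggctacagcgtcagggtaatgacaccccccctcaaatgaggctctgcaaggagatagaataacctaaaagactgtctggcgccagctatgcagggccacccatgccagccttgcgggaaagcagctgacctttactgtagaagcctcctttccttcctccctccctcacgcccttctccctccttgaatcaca
Abca1: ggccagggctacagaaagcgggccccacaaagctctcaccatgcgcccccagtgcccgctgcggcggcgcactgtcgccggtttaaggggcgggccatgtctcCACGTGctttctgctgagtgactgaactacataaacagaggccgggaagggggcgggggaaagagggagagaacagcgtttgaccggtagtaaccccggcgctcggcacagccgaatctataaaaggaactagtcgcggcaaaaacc
The Spp1 window held the RUNX motif on the reverse strand, starting 129 bases before the start site, and the PU.1 motif starting 113 bases before it. Gpnmb held the RUNX motif on the reverse strand, starting 176 bases before. Abca1 held the E-box core CACGTG, starting 147 bases before. In all 32851 windows of the table the shares with a match were 4.40% for RUNX, 2.44% for PU.1 and 6.02% for CACGTG, 4.46% for AP-1, 3.13% for TCACGTG, 3.25% for TCATGTG and 0.0152% for the LXR repeat. The Trem2 window and those of Apoe, Lgals3, Npc2 and Plin2 held none of the 7. These are matches of letters in one window and not measured sites.

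All 10 genes rose in the Proliferation Stage against the Uninjected libraries. On the log2(FPKM + 0.5) scale Lgals3, a sugar-binding lectin of macrophages, changed most, with a log2 fold change of 6.28 ± 0.51 (SE), followed by Spp1 (osteopontin), Apoe and Gpnmb, each above 5. The added 0.5 lowers the change of low genes, and a mean of FPKM follows a high library more than a mean of logs does. By the ratio of mean FPKM the order was Trem2 (336), Spp1 (173), Gpnmb (136) and Lgals3 (88.9). The place of Spp1 rests largely on Proliferation Stage replicate 1, at 368 FPKM against 14.2 to 56.9 in the others. The ratio of Trem2 rests on 2 fragments in the whole Uninjected group, and by pooled fragments it was 277 with a 95% counting interval from 76.6 to 2287. Abca1 changed least on both, at 1.83 ± 0.42 and a ratio of 4.56. Of all 13166 genes tested, 20.1% were called higher and 9.05% lower at an adjusted p of 0.05 (limma, Benjamini-Hochberg over all genes tested), so 10 of 10 stands beside a background of 20.1%. The median log2 fold change of the 10 was 3.63, against 0.05 over all genes. Every one of the 4 Proliferation Stage libraries lay above every Uninjected library for all 10 genes, which 25.6% of genes tested did. The two-sided exact permutation test on mean FPKM gave its smallest possible p, 0.0286 over 35 splits, for 6 genes, and 0.0571 to 0.2 for Abca1, Gpnmb, Fabp5 and Spp1. All 10 stayed called without Proliferation Stage replicate 1, where the macrophage genes were highest, beside 2237 of all genes called higher. With another scaling the split of calls over all genes moved, from 2649 higher and 1192 lower to 5132 and 175 on TPM, 4370 and 256 per fragment in genes, and 1895 and 1840 after quantile normalization, while 10 of 10 were called higher under each. The unpaired test of the methods, run on FPKM with the same adjustment, called 0 of the 10 here and 151 genes higher in all.

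**Figure D1:**
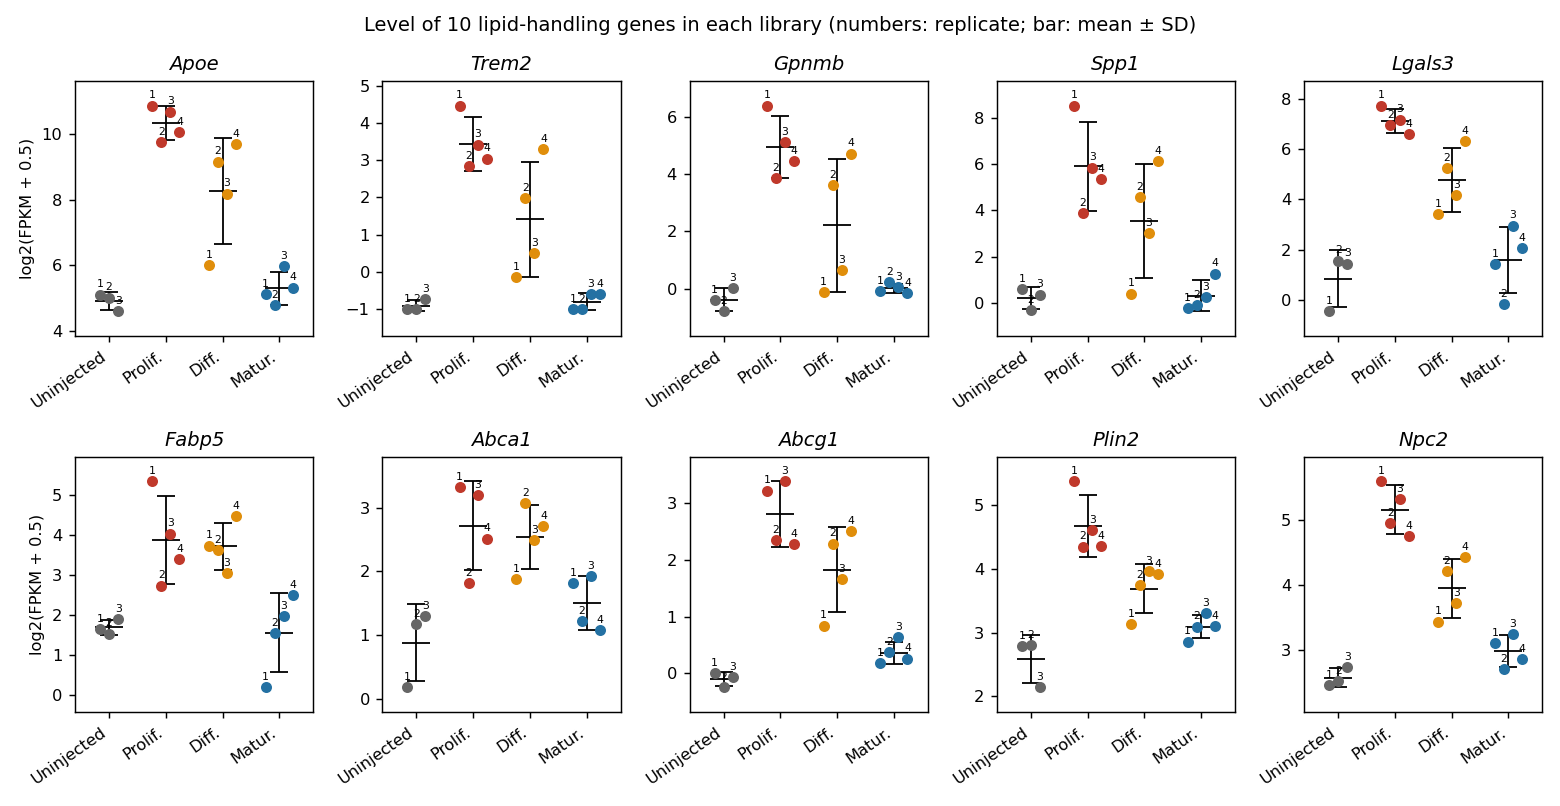
Level of each of the 10 genes as log2(FPKM + 0.5) in the 4 groups. Each point is 1 library with its replicate number, and the bars are the mean ± SD of 3 or 4 libraries. For all 10 genes the 4 Proliferation Stage points sit above the 3 Uninjected points, and in the Differentiation Stage replicate 1 is the lowest of 4 for every gene except Fabp5.

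At 7 days, in the Differentiation Stage, 8 of the 10 genes rose against the same Uninjected libraries, beside 17.0% of 12983 genes called higher and 12.5% called lower. Gpnmb and Spp1 did not pass, at adjusted p = 0.101 and 0.0571. They were also the 2 genes whose Differentiation Stage libraries overlapped with the Uninjected ones. For the other 8 every library lay above, as for 21.5% of genes tested. The median log2 fold change of the 10 was 2.17, against 0.06 over all genes, and the exact permutation test gave 0.0571 at the lowest and 0.2 at the highest. Without Uninjected replicate 3 the count fell to 5, with Apoe, Trem2 and Plin2 lost, and without Differentiation Stage replicate 1 all 10 were called, Gpnmb and Spp1 (adjusted p = 0.00328) among them. Without both Differentiation Stage replicates 1 and 3, a choice made after the values were seen, 9 were called. Trem2 fell under the filter in that fit and was not tested. Over all genes 1309, 2689 and 1971 were called higher in these fits in turn, against 2209 as reported. Trem2, at adjusted p = 0.0432, lost its call in 9 of 16 alternatives, in each setting that left out an Uninjected library among them. Over all genes the split moved from 2209 higher and 1626 lower to 4162 and 552 on TPM, 3874 and 711 per fragment in genes, and 1710 and 1962 after quantile normalization, and 9, 9 and 7 of the 10 were called higher under these. With the replicate number as a block 6 were called, without Trem2 and Plin2, with voom weights on the recovered fragments 6, without Trem2 and Lgals3, and the unpaired test of the methods called 0. In turn these called 1038, 2297 and 552 of all genes higher.

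In the Maturation Stage none of the 9 genes tested was called higher or lower, beside 0.0245% of 12253 genes called higher and 0.00% called lower. Before adjustment limma put 2 genes under 0.05, Plin2 and Npc2, and limma with voom weights on the recovered fragments and the unpaired test of the methods called 0 of them as well. The median log2 fold change was 0.41 over the 9, with Fabp5 the only value below 0, and the sign of Fabp5 and Spp1 turned under 3 alternatives each. Trem2 stayed under the level required for the test, with 2 of 4 Maturation Stage libraries at 0. For Abcg1 and Plin2 every Maturation Stage library lay above every Uninjected one, as for 6.70% of genes. The spread between libraries left wide 95% intervals of the log2 difference, which ran from -0.21 to 1.01 for Apoe, from -0.27 to 1.07 for Gpnmb and from -1.23 to 0.95 for Fabp5.

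**Figure D2:**
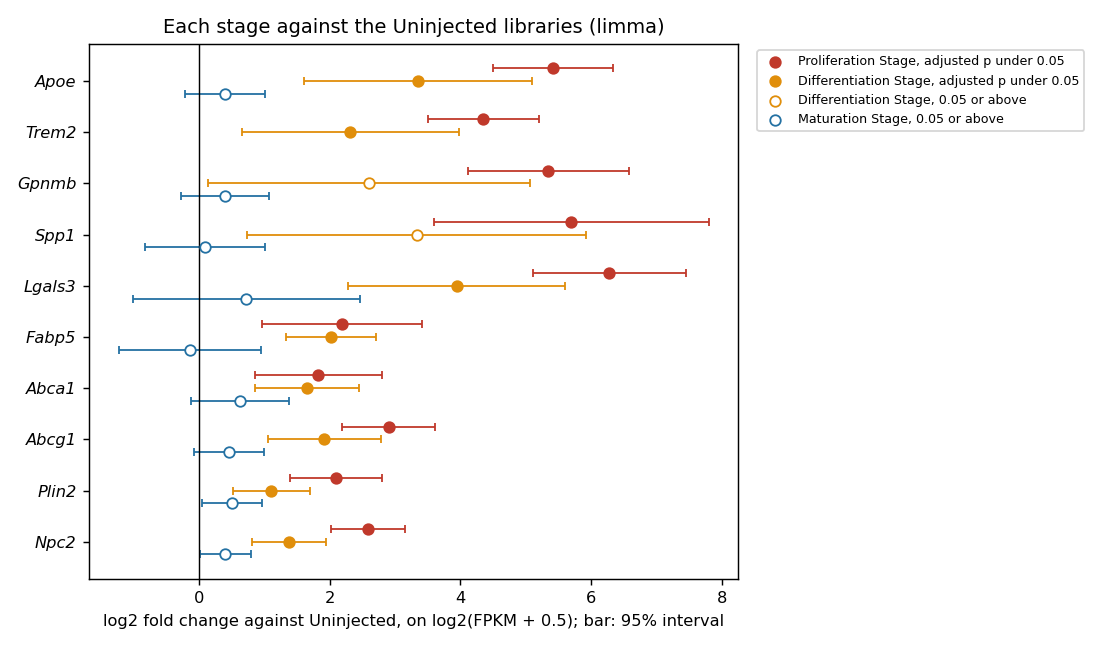
Log2 fold change of each gene in each stage against the 3 Uninjected libraries (limma on log2(FPKM + 0.5)). Filled points are called at an adjusted p of 0.05, open points are not, and bars are 95% intervals. The Proliferation Stage points are all filled, Gpnmb and Spp1 are open in the Differentiation Stage, and all 9 Maturation Stage points are open and lie between -0.14 and 0.73.

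Between stages every call among the 10 genes was downward. Npc2 was lower at 7 than at 4 days by a log2 fold change of -1.21 ± 0.23 (adjusted p = 0.0124) and Plin2 by -0.98 ± 0.25 (adjusted p = 0.0491), so 2 of 10 were called lower beside 1.93% of 14576 genes lower and 1.13% higher. The Plin2 call was lost in 17 of 22 alternatives. For Apoe, Lgals3, Plin2 and Npc2 every Differentiation Stage library lay below every Proliferation Stage library, as for 5.62% of genes. Fabp5 and Abca1 had the smallest differences, -0.16 ± 0.53 and -0.17 ± 0.36, with 95% intervals from -1.29 to 0.96 and from -0.95 to 0.60, and neither kept its sign when Proliferation Stage replicate 1 was left out (0.33 and 0.03). Leaving out Differentiation Stage replicate 4 raised the count called lower from 2 to 6, adding Apoe, Trem2, Gpnmb and Lgals3. Leaving out Differentiation Stage replicates 1, 2 or 3 or Proliferation Stage replicates 1, 3 or 4 left 1, and without both Differentiation Stage replicates 1 and 3 it was 0. Over all genes 281 were lower as reported and 360 without Differentiation Stage replicate 4. In the fits that left 1 of the 10 the number was 93 to 263, and it was 27 without both replicates.

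Later, 6 of the 10 genes were called lower at 14 than at 7 days, Apoe, Trem2, Lgals3, Fabp5, Abcg1 and Npc2, beside 9.54% of genes lower and 4.71% higher. For the same 6 every Maturation Stage library lay below every Differentiation Stage library, as for 13.5% of genes tested. The count was 10 without Differentiation Stage replicate 1, 3 without replicate 2, 2 without replicate 4 and 3 without Maturation Stage replicate 2. Over all genes the lower calls moved too, to 2049, 523, 536 and 597 in these fits in turn, against 1390 as reported. The log2 fold changes of the 6 ran from -3.21 ± 0.69 for Lgals3 and -2.95 ± 0.60 for Apoe to -0.97 ± 0.23 for Npc2, and those of Spp1 and Abca1, not called, were -3.24 ± 1.04 (adjusted p = 0.0515) and -1.03 ± 0.36 (adjusted p = 0.0697). Between 4 and 14 days all 10 were called lower, beside 20.5% of genes lower and 13.3% higher, and 9 of them, all but Abca1, had no overlap between the libraries, as for 19.4% of genes. The call of Abca1 (adjusted p = 0.0217) was lost without Maturation Stage replicate 2 or 4 or Proliferation Stage replicate 1 or 3, with adjusted p from 0.056 to 0.0744. By the unpaired test of the methods 0 of the 10 were lower from 7 to 14 days and 3 from 4 to 14 days. Over all genes it called 469 and 597 lower. All of these comparisons draw on the same 15 libraries and are not independent of each other.

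Trem2, the lipid receptor, is on chromosome 17 (48346401 to 48354147, plus strand). In the Proliferation Stage it stood at 21.6, 6.63, 10.2 and 7.76 FPKM in replicates 1 to 4. The Differentiation Stage held 0.409, 3.44, 0.914 and 9.32 FPKM, from 3 to 149 fragments. It was listed at 0 in 2 of 4 Maturation Stage libraries and 2 of 3 Uninjected libraries, and the others held 0.155, 0.159 and 0.103 FPKM. Replicate 1 was the highest of the Proliferation Stage and the lowest of the Differentiation Stage, and Differentiation Stage replicate 4 lay above Proliferation Stage replicates 2 and 4. The Uninjected group held 2 fragments in all, so the ratio of the Proliferation Stage to it, 277, has a 95% counting interval from 76.6 to 2287 (exact, counting error only), and the fitted log2 fold change of 4.35 ± 0.37 depends on the 0.5 that was added. Of the 2 genes nearest to it, Otulinl and C3ar1 (Pearson r = 0.99 for both), the latter encodes a complement receptor.

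Gpnmb, a transmembrane glycoprotein of macrophages and pigment cells, is on chromosome 6 (49036546 to 49070929, plus strand). It stood at 82.6, 14.02, 33.9 and 21.3 FPKM at 4 days. At 7 days it was 0.414, 11.7, 1.07 and 25.6 FPKM, a 61.9-fold range, so that replicate 1 lay inside the Uninjected range and replicate 4 above 2 Proliferation Stage libraries. The Maturation Stage held 0.392 to 0.667 FPKM and the Uninjected group 0.0777 to 0.510, from 1 to 13 fragments per library. Gpnmb rose by a log2 fold change of 5.34 ± 0.54 in the Proliferation Stage (adjusted p = 0.000448). Its value at 7 days was 2.60 ± 1.08, with the call reached without Differentiation Stage replicate 1 (adjusted p = 0.0249). Nearest to it over the 15 libraries was Trem2 (r = 0.99).

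Spp1, which encodes osteopontin, a secreted ligand of integrins and CD44, is on chromosome 5 (104435118 to 104441050, plus strand). It had the widest spread of the 10 genes at 4 and at 7 days. Proliferation Stage replicate 1 held 368 FPKM and replicates 2 to 4 held 14.2, 56.9 and 40.7. The Differentiation Stage libraries held 0.818, 23.5, 7.60 and 70.3 FPKM, an 85.98-fold range, the lowest of them from 2 fragments. In the Maturation Stage it was 0.352 to 1.91 FPKM and in the Uninjected group 0.307 to 0.998. The Proliferation Stage thus lay above the Uninjected group in every library, while Differentiation Stage replicate 1 fell within it. Its log2 fold change in the Proliferation Stage was 5.70 ± 0.92 (adjusted p = 0.00367), and 4.82 without Proliferation Stage replicate 1 and 6.37 without replicate 2, both still called. Of its exons, 309 bases are shared with the same-strand gene Gm42793, which reached 0.307 FPKM. Its nearest genes were Man1c1 and Myof (r = 0.99 and 0.98), the latter a membrane repair protein of the ferlin family.

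Apoe, the apolipoprotein that carries cholesterol out of macrophages, is on chromosome 7 (19696109 to 19699188, minus strand) and had the highest FPKM of the 10 genes in every library. It stood at 1851, 855, 1638 and 1063 FPKM in the Proliferation Stage. The Differentiation Stage held 64.0, 570, 290 and 818 FPKM. The Maturation Stage held 34.4, 27.4, 63.0 and 39.6 FPKM and the Uninjected group 34.05, 31.9 and 23.8. Differentiation Stage replicate 1 lay just above the highest Maturation Stage library, and replicate 4 just under the lowest Proliferation Stage library. Apoe rose by a log2 fold change of 5.42 ± 0.40 at 4 days and 3.35 ± 0.76 at 7 days, the latter 4.09 without Differentiation Stage replicate 1. Its share of the summed FPKM of the 10 genes was 69.0% to 82.7% in the Proliferation Stage and 55.2% to 67.1% in the Uninjected group. The nearest genes were Laptm5 and Ms4a7 (r = 0.996 and 0.992), both of leukocyte membranes.

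Lgals3, or galectin-3, a lectin of macrophages, is on chromosome 14 (47367751 to 47386160, plus strand). It stood at 213, 124, 144 and 96.3 FPKM at 4 days and at 10.2, 37.1, 17.4 and 79.6 FPKM at 7 days. The Maturation Stage held 2.18, 0.390, 7.23 and 3.70 FPKM and the Uninjected group 0.221, 2.45 and 2.20, the lowest of each from 1 fragment. The Differentiation Stage lay wholly between the Proliferation Stage and the Uninjected group. Its log2 fold change of 6.28 ± 0.51 in the Proliferation Stage was 5.62 without Uninjected replicate 1, and the 3.94 ± 0.73 of the Differentiation Stage was 3.29, with both still called. With voom weights on the recovered fragments the call at 7 days was lost (4.42, adjusted p = 0.0663, limma). Bex3 and Cd63, a membrane protein of lysosomes, ran closest to it (r = 0.99 and 0.98).

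Npc2, the soluble cholesterol carrier of the lysosome, is on chromosome 12 (84754562 to 84773152, minus strand). It stood at 47.7, 30.4, 39.6 and 26.4 FPKM in the Proliferation Stage. It then held 10.3, 18.0, 12.6 and 20.9 FPKM at 7 days, 5.99 to 8.96 at 14 days and 4.99 to 6.15 without injury. The 3 stages did not overlap with each other, and the Maturation Stage overlapped with the Uninjected group. Npc2 rose by a log2 fold change of 2.59 ± 0.25 in the Proliferation Stage (adjusted p = 0.00032) and 1.37 ± 0.25 in the Differentiation Stage (adjusted p = 0.0058). Nearest to it were Ppfia4 and Ucp2 (r = 0.99 for both), the latter a carrier of the inner mitochondrial membrane.

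Abca1 and Abcg1 encode the cholesterol exporters. Abca1, on chromosome 4 (53030787 to 53159895, minus strand), stood at 9.52, 3.01, 8.67 and 5.20 FPKM at 4 days and at 3.19, 7.92, 5.10 and 6.05 FPKM at 7 days. The Maturation Stage held 1.61 to 3.30 FPKM and the Uninjected group 0.635, 1.76 and 1.95. The Proliferation Stage range covered that of the Differentiation Stage, and the Maturation Stage overlapped with all other groups. The rise of 1.83 ± 0.42 in the Proliferation Stage (adjusted p = 0.0162) lost its call without Uninjected replicate 1, the lowest library (1.48, adjusted p = 0.0578), while the 1.66 ± 0.35 of the Differentiation Stage kept it under all alternatives but the unpaired test of the methods. Gsdmd and Trp53 ran closest to it (r = 0.96 and 0.95).

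Abcg1, on chromosome 17 (31057675 to 31117988, plus strand), stood at 8.78, 4.57, 9.87 and 4.34 FPKM in the Proliferation Stage. The Differentiation Stage held 1.29, 4.37, 2.65 and 5.18 FPKM, the Maturation Stage 0.635 to 1.05 and the Uninjected group 0.347 to 0.507. As for Abca1, replicates 1 and 3 were the lowest of the Differentiation Stage. Every Maturation Stage library lay above the Uninjected group, where those of Abca1 overlapped. It rose by 2.90 ± 0.31 in the Proliferation Stage (adjusted p = 0.00061) and by 1.92 ± 0.38 at 7 days (adjusted p = 0.00798). The gene nearest to it was Grn (r = 0.99), which encodes the lysosomal protein progranulin.

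Plin2, the coat protein of lipid droplets in most cell types, is on chromosome 4 (86648386 to 86670060, minus strand). It stood at 41.0, 19.9, 23.9 and 20.02 FPKM at 4 days and at 8.25, 12.9, 15.1 and 14.7 FPKM at 7 days. The Maturation Stage held 6.77, 8.04, 9.40 and 8.10 FPKM and the Uninjected group 6.44, 6.48 and 3.93. The lowest Maturation Stage library lay just above the highest Uninjected one, and Differentiation Stage replicate 1 lay among the Maturation Stage libraries. Plin2 rose by 2.09 ± 0.31 in the Proliferation Stage (adjusted p = 0.00241) and by 1.11 ± 0.26 in the Differentiation Stage (adjusted p = 0.0151), which was 0.89 without Uninjected replicate 3 (adjusted p = 0.0573) and 1.03 with the replicate number as a block (adjusted p = 0.0795). Nearest to it were Mrc1, a mannose receptor of macrophages, and Vsir (r = 0.98 and 0.97).

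Fabp5, a carrier of fatty acids in macrophages, endothelium and epidermis, is on chromosome 3 (10012548 to 10016607, plus strand) and followed another order of libraries. It stood at 40.2, 6.18, 15.97 and 10.1 FPKM at 4 days. At 7 days it was 12.8, 11.8, 7.75 and 21.8 FPKM, so replicate 1, the lowest library for the 9 other genes, was the second highest. The Maturation Stage held 0.650, 2.44, 3.44 and 5.17 FPKM around the Uninjected values of 2.65, 2.41 and 3.22. Its rise of 2.18 ± 0.53 in the Proliferation Stage (adjusted p = 0.0201) lost its call without Proliferation Stage replicate 3 or without any 1 of the Uninjected libraries, with adjusted p from 0.0571 to 0.0689. At 7 days the value was 2.02 ± 0.30 (adjusted p = 0.00295). Twf1 and Mapk3 ran closest to it (r = 0.96 for both). Its reads may be shared with a near copy, Gm6166 (99.4% identical over 175 aligned bases), which was listed at 0.425 to 8.12 FPKM in the Differentiation Stage, so its level is uncertain to that extent. Plin2 has a match of 259 aligned bases (96.1% identical) to Gm12551, which stayed under 1 FPKM.

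**Figure D3:**
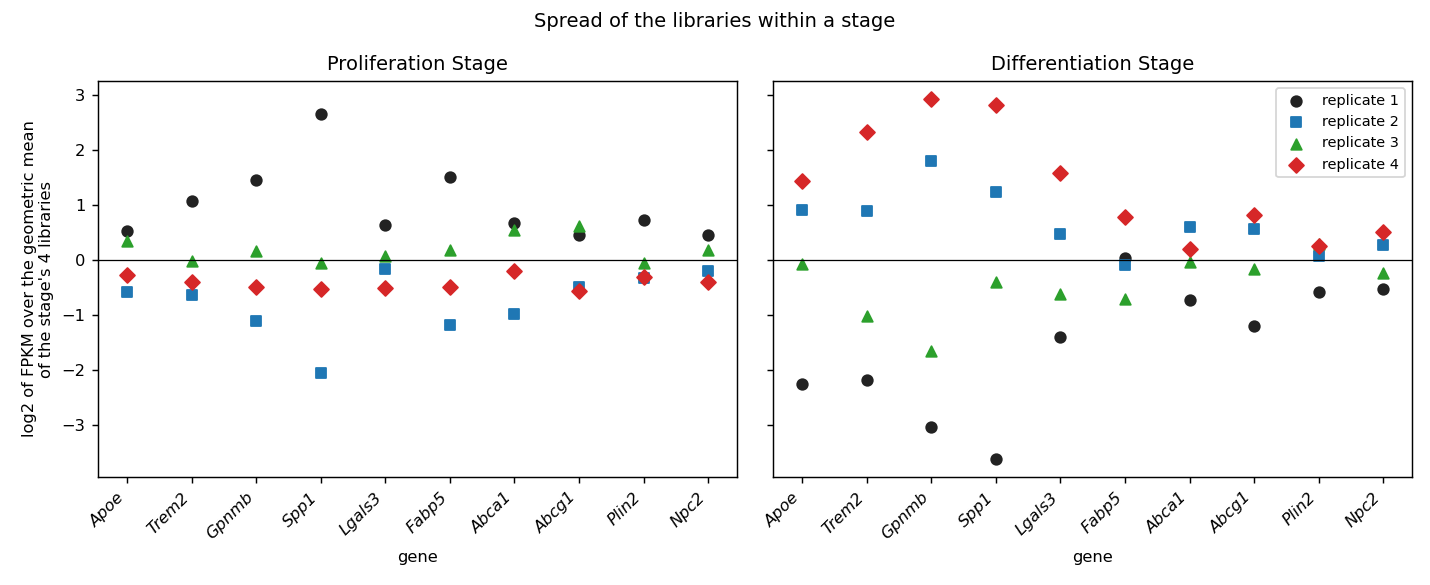
Each library of the Proliferation Stage and the Differentiation Stage, as log2 of its FPKM over the geometric mean of the 4 libraries of its stage, for the 10 genes. In the Differentiation Stage the replicates spread over 85.98-fold for Spp1 and 61.9-fold for Gpnmb but over 1.83-fold for Plin2, and in the Proliferation Stage replicate 1 is the highest for every gene except Abcg1.

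The libraries that were high in macrophage genes were also high in most of the 10. Against the mean log2(FPKM + 0.5) of the 16 macrophage genes over the 15 libraries, Pearson's r was 0.99 for Apoe and Abcg1, 0.98 for Npc2, 0.97 for Trem2, 0.96 for Lgals3 and Plin2, 0.95 for Gpnmb and Spp1, 0.86 for Abca1 and 0.83 for Fabp5. These points share the group differences and the library scaling, so r is a description and no test was made. Per unit of the macrophage mean the log2 level rose by 1.30 for Spp1, 1.26 for Lgals3, 1.14 for Apoe, 1.13 for Gpnmb and 0.93 for Trem2, but by 0.59 for Abcg1, 0.53 for Fabp5, 0.49 for Npc2, 0.39 for Plin2 and 0.37 for Abca1. These slopes depend on the added 0.5, which compresses values near 0, as those of Trem2, Gpnmb and Abcg1 in the Uninjected group. By the ratio of mean FPKM at 4 days Trem2 rose most (336). Of the 16 macrophage genes themselves 3, 5 and 6 were at 0 in Uninjected replicates 1 to 3.

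Set beside the macrophage genes of the same library, Apoe stayed 4.31 to 5.50 log2 units above their mean in all 15 libraries. Plin2 stood 2.51 to 2.63 units above it in the Uninjected group and 0.57 below to 0.03 below it in the Proliferation Stage, without overlap. Npc2 stood 2.28 to 3.09 units above it in the Uninjected group and from -0.19 to 0.57 in the Proliferation Stage. Both genes were therefore among the higher ones of Uninjected fibers, where the macrophage genes were near 0, and rose less than these did. For Trem2 the Proliferation Stage libraries stood between -1.76 and -1.32, and for Gpnmb between -0.52 and 0.59. Uninjected fibers held the 10 genes in the order Apoe, Plin2, Npc2, Fabp5, Lgals3, Abca1, Spp1, Abcg1, Gpnmb and Trem2 by mean FPKM, and the Proliferation Stage in the order Apoe, Lgals3, Spp1, Gpnmb, Npc2, Plin2, Fabp5, Trem2, Abcg1 and Abca1. In the latter order the libraries of every gene but Apoe overlapped in range with those of the genes next to it other than Apoe.

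**Figure D4:**
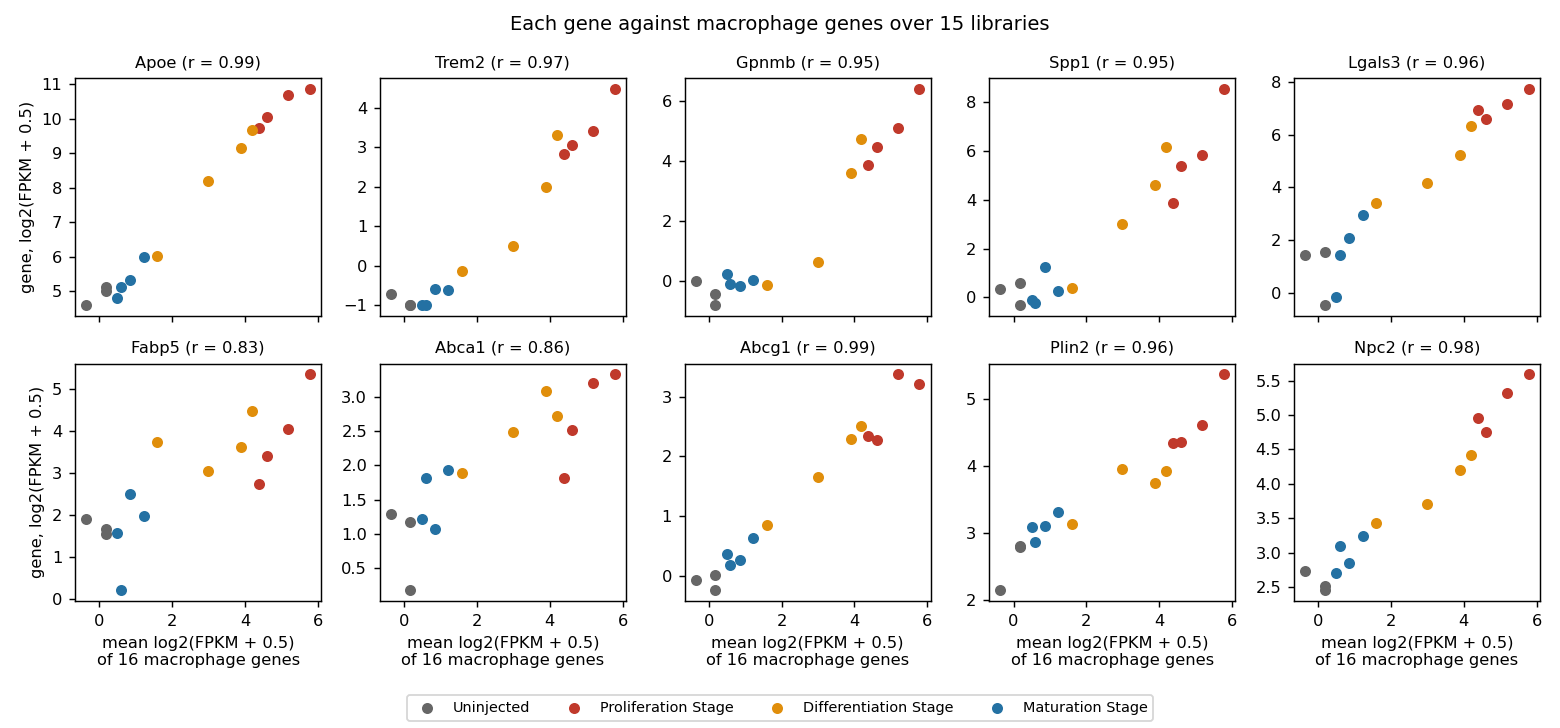
Level of each gene against the mean of 16 macrophage genes, both as log2(FPKM + 0.5), with 1 point for each of the 15 libraries and Pearson's r above each panel. Apoe and Abcg1 lie along a line through all 4 groups (r = 0.99), whereas Fabp5 and Abca1 scatter more widely (r = 0.83 and 0.86), and Gpnmb stays near its Uninjected level in the lowest Differentiation Stage library.

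The genes that work with the 10 were taken from lists of each pathway. Of 10 genes of TREM2 signaling, 9 were called higher in the Proliferation Stage and 0 lower, beside 20.1% and 9.05% of all genes. Their median log2 fold change was 2.37, against 0.05 over all genes. Tyrobp, the adaptor through which TREM2 signals, rose by 7.11 ± 0.44 and stood at 60.3 to 170 FPKM against 0 to 0.758 in the Uninjected group. Syk, the kinase recruited by that adaptor, rose by 2.57 ± 0.32. At 7 days 7 of 9 tested were higher, beside 17.0% of all genes, and at 14 days all 10 were lower than at 4 days, beside 20.5%.

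Of 19 genes of the list of LXR and PPAR nuclear receptors and their targets 16 were tested in the Proliferation Stage, where 3 were higher and 1 lower, with a median of -0.33. These counts are near the shares over all genes, 20.1% higher and 9.05% lower. They leave out the 10 genes, all of which were called higher at 4 days, Abca1, Abcg1 and Apoe among them. Among the receptors Rxra alone was called at 4 days, and 4 were lower at 7 days, with the largest falls in Rxra, Rxrb and Ppard. Nr1h3 (LXRα), which induces Abca1, Abcg1 and Apoe in macrophages, held 3.48 to 7.78 FPKM in the Proliferation Stage and 5.07 to 7.72 in the Uninjected group (log2 fold change -0.36 ± 0.29, adjusted p = 0.353). Pltp, which transfers phospholipid between lipoproteins, rose by 3.61 ± 0.27, and Scd2, a fatty acid desaturase, by 1.76 ± 0.43. Rxra, the partner of these receptors, was lower by a log2 fold change of -1.31 ± 0.33 at 4 days and -1.76 ± 0.20 at 7 days. On TPM or per fragment in genes 0 of the list were lower at 4 days. At 7 days 4 of 15 tested were lower and 2 higher, beside 12.5% and 17.0% of all genes, and 1 was lower and 3 higher on TPM or per fragment in genes. Of the apolipoproteins beside Apoe, Apoc1 was at 0.877 to 1.86 FPKM in the Proliferation Stage and Apoc2 was listed at 0 in every library. Lpl, the lipoprotein lipase, was at 14.8 to 44.2 FPKM in the Proliferation Stage and 12.4 to 78.9 in the Uninjected group, and was not called.

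Of 12 uptake receptors 9 were tested in the Proliferation Stage, and 4 were higher and 2 lower, beside 20.1% and 9.05% of all genes. Stab1, Axl and Lrp1, receptors for debris, dying cells and lipoproteins, rose by 2.99 ± 0.50, 2.90 ± 0.48 and 2.10 ± 0.38, and Msr1, a scavenger receptor of macrophages, also rose, to 0.417 to 5.62 FPKM, from 0 in all Uninjected libraries. Vldlr and Sorl1 were lower, by log2 fold changes of -2.84 ± 0.84 and -1.07 ± 0.35. With voom weights on the recovered fragments 4 of the list were higher and 0 lower, so these 2 calls were lost. Cd36, a fatty acid receptor of muscle, endothelium and macrophages, held 20.1 to 47.5 FPKM in the Proliferation Stage against 44.7 to 103 in the Uninjected group (adjusted p = 0.055).

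Of 16 genes of lysosomal lipid breakdown and cholesterol export, 7 were higher and 1 lower in the Proliferation Stage, with a median of 0.93. Of all genes 20.1% were higher and 9.05% lower. With voom weights 7 of the list were higher and 0 lower. This list leaves out Npc2, Abca1 and Abcg1. Pla2g15 and Hexa, lysosomal enzymes of phospholipid and glycolipid breakdown, rose by 2.33 ± 0.30 and 2.00 ± 0.33, and Lipa, the acid lipase that frees cholesterol, by 1.93 ± 0.45. Npc1, which encodes the partner of NPC2, was not called higher. It held 3.05 to 5.09 FPKM in the Proliferation Stage against 4.07 to 6.86 in the Uninjected group (adjusted p = 0.157), and was lower at 7 days by a log2 fold change of -1.24 ± 0.25 (adjusted p = 0.00841). Psap, the precursor of sphingolipid activators, held 556 to 1186 FPKM against 311 to 352, without a call (adjusted p = 0.0783). At 7 days 4 were higher and 3 lower, beside 17.0% and 12.5% of all genes. The 3 lower calls became 0 when FPKM was rescaled to TPM or to fragments in genes.

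The droplet list, which leaves out Plin2, held no rise in limma. Of its 13 genes tested 0 were called in either direction in the Proliferation Stage (2 under 0.05 before adjustment, and 0 with voom weights), with a median of -0.63. At 7 days 0 were higher and 4 were lower, Plin5, Plin4, Pnpla2 and Plin3, beside 17.0% and 12.5% of all genes. On TPM 2 were higher and 2 lower. Plin5, the droplet coat of oxidative muscle, held 1.26 to 4.00 FPKM in the Differentiation Stage against 3.64 to 19.6 in the Uninjected group. Plin3 held 4.27 to 7.99 against 9.08 to 15.2 FPKM. Of the fatty acid binding proteins other than Fabp5, limma called 0 of 4 tested at 4 days and 0 of 3 at 7 days, with 0 under 0.05 before adjustment and 0 with voom weights in either. Fabp3, the muscle form, held 73.4 to 499.6 FPKM in the Proliferation Stage and 163 to 433 in the Uninjected group, and Fabp4, a form of adipocytes and endothelium, 12.8 to 28.6 and 27.9 to 43.3 FPKM.

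For osteopontin's receptors 5 of 8 tested were higher in the Proliferation Stage and 0 lower, and 5 were higher and 1 lower at 7 days. Of all genes 20.1% were higher and 9.05% lower at 4 days, and 17.0% and 12.5% at 7 days. Cd44 rose by 2.99 ± 0.39 and 2.66 ± 0.36, and Itga5 by 2.19 ± 0.54 and 2.49 ± 0.37. Itgav, a subunit of the classical receptor, was called in the Differentiation Stage alone (0.88 ± 0.19), and the difference between the stages was not called. Of the galectin list 3 of 5 tested were higher in both stages, Lgals3bp, Lgals1 and Lgals9, beside the same shares of all genes. Lgals1 stood at 731 to 1037 FPKM in the Proliferation Stage against 135 to 251 in the Uninjected group, above Lgals3 in both. Of 15 genes of sterol synthesis and esterification 12 were tested and 3 were higher and 1 lower in the Proliferation Stage, near the 20.1% and 9.05% of all genes. Soat1, which esterifies cholesterol for storage, rose by 2.36 ± 0.43 and Srebf2, a transcription factor of the pathway, by 1.66 ± 0.28, while Fdft1 (squalene synthase) was lower by a log2 fold change of -2.06 ± 0.54. At 14 days limma called 0 of the 81 listed pathway genes tested against the Uninjected group, with 15 under 0.05 before adjustment, and 1 was higher and 3 lower with voom weights.

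**Figure D5:**
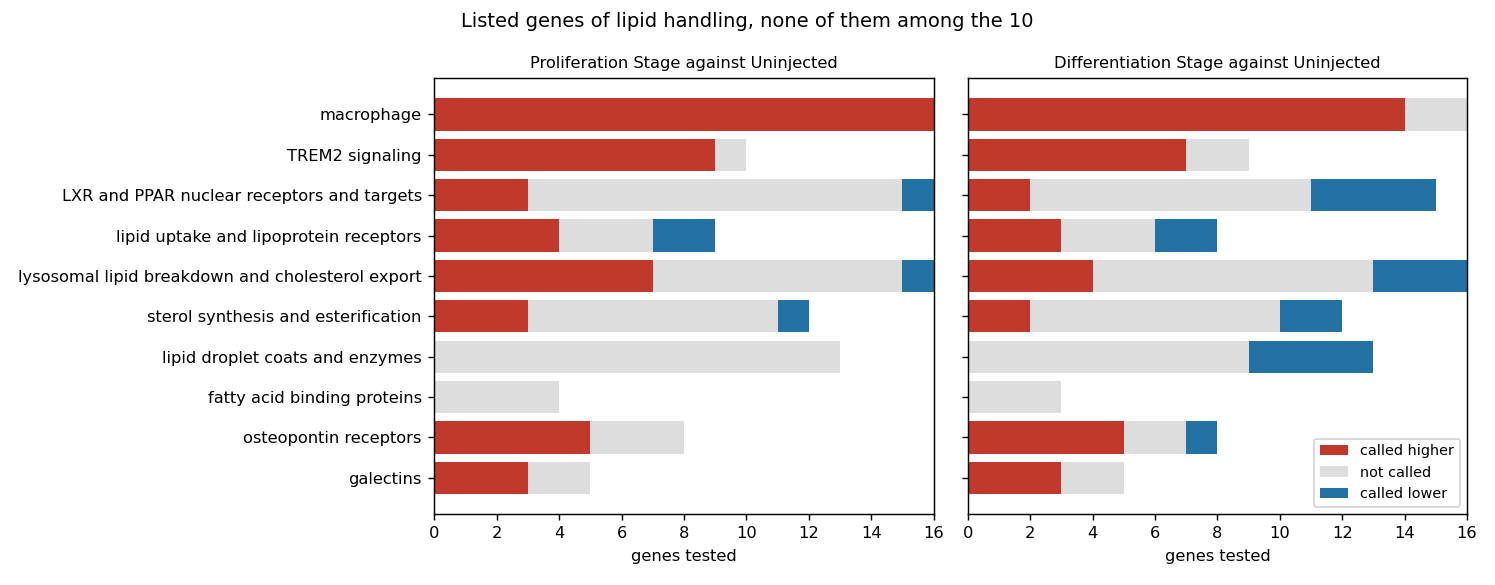
Genes tested of each list against the Uninjected libraries, none of them among the 10, with those called higher in red, called lower in blue and not called in grey. All 16 macrophage genes and 9 of 10 TREM2 signaling genes are red in the Proliferation Stage, while the droplet list holds no red and, at 7 days, 4 blue.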

How the data were processed

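RNA of 15 libraries was read from 3 tables, 1 per stage, in which the 3 Uninjected columns are identical. The authors deposited FPKM from paired-end sequencing of polyadenylated RNA, with genome build mm10 in the submitters' processing notes. For the aligner, the counter and the gene models the sources used here name nothing, and the kit does not mark strand. The tables' columns of means, standard deviations, log2 ratios and p-values, and the lists of proteins and genes deposited beside them, were not used, and 0 columns of per-sample values were left out. Fragments were recovered as FPKM times merged exon length in GENCODE release M21 (52125 of the identifiers) over the value of 1 fragment. Of values under 50 fragments, 90.95% to 95.3% came out within 0.02 of a whole number per library. Counting intervals cover counting error only.

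Each stage was compared with Uninjected in limma 3.58.1 (R 4.3.3, statmod 1.5.0). Genes that reached 0.5 FPKM in 3 or more of the 7 libraries entered lmFit on log2(FPKM + 0.5), followed by eBayes (trend and robust on). Stages were compared with each other in 1 fit of all 15 libraries. Such fold changes understate the change of low genes. P-values are two-sided, Benjamini-Hochberg adjustment ran over every gene tested, and 0.05 was the threshold. The fit was tested on simulated data. Exact permutation tests, correlations and motif searches used Python 3.11.15 (numpy 2.4.6, pandas 2.3.3). Nearest genes are the 2 with the highest Pearson r over the libraries among genes with a group mean of at least 5 FPKM. Of each list the text names up to 3 called genes with the largest rise and fall, and partners fixed by name whatever their values. Some listed genes that this rule picks are not reported here by name. The 10 genes and the lists were chosen with earlier results of these data known. The labels number subjects from 1 in each group and name no pairs. Libraries of 1 group are thus labelled as different subjects. Whether the Uninjected libraries come from other mice than the injected ones is not stated by the labels. The p-values measure the spread between libraries. Alternatives covered the pseudocount, the filter, 4 scalings, the variance model, the unpaired test of the methods, the libraries in the fit, each replicate left out and a replicate block.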

Additional observations from a re-analysis of the deposited data

Results flagged for a closer look

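Spp1 in Proliferation Stage replicate 1 stood at 368 FPKM, far from the next of the 4 libraries at 56.9 FPKM: the gap was 0.879 of the range, over the critical value of Dixon's test for 4 samples. It was the 1 value singled out among 30 groups of 4 libraries, and chance alone singles out about 1 in 20 groups. The value rests on 8369 fragments. The same library had the highest macrophage genes of the stage, and the part of these in the value was not tested.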

How the results depend on the processing

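Of 1228 values of single genes under the alternatives, 1105 kept both their direction and their side of the threshold, 85 lost a call, 26 gained one and 12 turned in sign, and every value that turned belongs to a difference that was not called. Fits in which a gene fell under the filter are not among these values. All 10 rises of the Proliferation Stage were called under every scaling, filter and pseudocount tried. The unpaired test of the methods, on FPKM with the same adjustment, called 0 of the 10 at 4 days, 0 at 7 days, 0 lower from the Differentiation to the Maturation Stage, 0 from the Proliferation to the Differentiation Stage and 3 from the Proliferation to the Maturation Stage; the cause was not tested.

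Leaving out 1 replicate at a time gave 5 (without Uninjected replicate 3) to 10 (without Differentiation Stage replicate 1) rises in the Differentiation Stage, and 2 (without Differentiation Stage replicate 4) to 10 (without replicate 1) genes lower from there to the Maturation Stage. For the Differentiation Stage against the Proliferation Stage it gave 1 (without Differentiation Stage replicate 1) to 6 (without replicate 4) genes lower. That last count, 2 as reported, was 1 with a pseudocount of 0.1, with no filter on low values, after quantile normalization, in eBayes without trend and robust, with the replicate block and rescaled by fragments in genes. It was 0 on TPM, in a fit of only the 8 libraries of both stages and without both Differentiation Stage replicates 1 and 3. The calls over all genes moved as well. The 5 and 10 rises stood beside 1309 and 2689 genes higher. The 2 and 10 falls stood beside 536 and 2049 genes lower, and the 1 and 6 falls beside 128 and 360.

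Signs turned for 4 small differences. Maturation Stage against Uninjected, Fabp5 (-0.14) was 0.071 by the unpaired test and 0.064 with voom weights, and -0.45 to 0.31 with 1 replicate left out; Spp1 (0.09) was -0.23 with the replicate block and -0.23 to 0.28 with 1 replicate left out. Differentiation against Proliferation Stage, Fabp5 (-0.16) was 0.17 and Abca1 (-0.17) was 0.18 without both Differentiation Stage replicates 1 and 3, and they ran from -0.54 to 0.33 and from -0.47 to 0.046 with 1 replicate left out.

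The replicate numbers did not pair the libraries: deviations from the group means correlated between -0.48 and 0.07 in 21 pairs of the same number, of which 0 were over 0.1, against 12 of 63 pairs of other numbers. A fit with the replicate number as a block called 10, 6 and 0 of the genes higher in the Proliferation, Differentiation and Maturation Stage, and 1, 6 and 10 lower in the comparisons of the Differentiation with the Proliferation Stage, of the Maturation with the Differentiation Stage and of the Maturation with the Proliferation Stage. Over all genes it called 2020, 1038 and 0 higher and 113, 801 and 2490 lower in the same comparisons.

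Scaling moved the median log2 fold change of all genes, from 0.05 to 0.90 on TPM, 0.64 per fragment in genes and -0.15 after quantile normalization in the Proliferation Stage, and from 0.06 to 0.61, 0.46 and -0.09 in the Differentiation Stage. Calls over all genes ran from 151 to 5132 higher in the former (2649 as reported) and from 552 to 4162 in the latter (2209 as reported), without counting the fits that left out 1 replicate. The rescaling by fragments, the voom weights and the fits without both Differentiation Stage replicates were chosen after seeing the data. Depth limits the lowest values: Trem2 and Gpnmb rest on 0 to 13 fragments in each Uninjected and Maturation Stage library, so small differences between these groups were not detectable.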
